A study of Danio rerio with 9 samples.

Results

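The RNA of untreated zebrafish larvae at 5 days post fertilization was described gene by gene, to show which tissues and functions dominated the signal of a whole larva. The 3 control arrays of a series of 9 were used, and 10502 of the 12900 genes with a symbol matched to a probe were ranked. A gene entered the ranking when 1 of its probes was marked well above background on all 3 control arrays, and it was placed by the mean log2 processed signal of its brightest such probe. No effect of a treatment was tested, and the other arrays serve only at the end, for the same ranking.

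The series measured whole bodies on single-colour (Cy3) oligonucleotide arrays, in 3 groups of 3 samples that the labels describe as independent experiments. The control larvae are labelled as having received no treatment. The treatment protocol, written for all groups together, names 1% DMSO for 1 h in place of tacrine and then a vehicle for 1 h in place of neomycin, so "untreated" here means without either compound and does not mean without solvent. The other groups had neomycin at 200 µM for 1 h, or tacrine at 50 µM for 1 h and then neomycin. The labels give no strain, sex or number of larvae per sample. A bulk sample of the whole body cannot tell apart few cells with much RNA and many cells with little.

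At 5 days a zebrafish larva has hatched, swims, hunts and begins to feed. Its trunk is mostly fast skeletal muscle, the eye has a working retina and a lens packed with crystallins, and liver, pancreas and gut have formed. Blood cells still carry embryonic globins, the thymus is being colonized by lymphoid cells, and the gonads hold only few germ cells. These are textbook facts given as background.

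Levels below are log2 processed signals from which the 75th percentile of the same array was subtracted, so that a level of 0 equals that percentile and a difference of 1 is a doubling of signal. Across the ranked genes the mean levels ran from -4.49 to 8.73, with a median of 0.27. The 75th percentile itself was 115, 105 and 137 signal units on control arrays 1, 2 and 3, and no spot was saturated. A rank is that of a probe's signal, which depends on the probe as well as on the RNA. Among 5525 genes with at least 2 detected probes, the brightest and the dimmest probe of the gene differed by a median of 2.33 on the log2 scale, or 5.04-fold, whereas the median SD of a probe over the 3 arrays was 0.22. The order of single genes is therefore a description, and lists of many genes were given more weight than single ranks.

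Of 43603 probes, 27304 (62.6%) were well above background on all 3 control arrays, 12506 (28.7%) on none, and the others on 1 or 2. Of the 12900 genes, 10502 (81.4%) had such a probe, and these shares are the background for every count of detected members below. The genes cover only probes matched to a symbol. Of those probes 74.7% were detected, against 46.1% of the 18430 without a symbol. The best probe of 347 further genes passed on 2 arrays, that of 389 genes on 1 array and that of 1662 genes (12.9%) on none. Just outside the ranking, the highest signals were those of ggact.2 (mean level -2.06), adrb3b (-3.41) and odf2b (-3.52), each with 2 arrays above background. The lowest ranked genes were ippk at -4.49 and ldlrad3 at -4.47. The brightest probe of an undetected gene had a median level of -5.94, and 274 of the 2398 undetected genes lay above the lowest ranked gene. Dim detected and undetected genes thus overlapped in level.

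The gene with the highest mean was rpl8, a protein of the large ribosomal subunit, at 8.92, 8.59 and 8.70 on control arrays 1, 2 and 3 (8.73 ± 0.17, SD, n = 3). Next came rpsa, a protein of the small subunit, at 8.99, 8.38 and 8.72. The third was crygm2d3, a gamma M crystallin of the fish lens, at 9.25, 8.30 and 8.48. Each of these stood first on 1 of the arrays: crygm2d3 on control 1, rpl8 on control 2 and rpsa on control 3. The order of the first 3 genes thus differed from array to array.

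Among the 30 highest genes with a proper symbol, 12 encode ribosomal proteins, 6 lens crystallins and 4 proteins of skeletal muscle. A further 3 belong to the translation elongation list, and 1 encodes a pancreatic protease. The ribosomal genes were rpl8, rpsa, rps25, rps14, rps2, rpl24, rps15, rpl3, rpl30, rpl7a, rpl13a and rpl7. The members of the translation elongation list were eef2b, which moves the ribosome along the messenger, eef1a1l1, which brings the charged tRNA, and tpt1. The last is not an elongation factor. Muscle was represented by tnnt3b, tpma, actc1b and mylpfb, and the pancreas by the trypsin gene prss1. The remaining 4 were nme2b.2, a nucleoside diphosphate kinase, hsp90ab1, a constitutive cytosolic chaperone, slc25a5, the mitochondrial exchanger of ADP and ATP, and rack1, a scaffold bound to the ribosome. The means of the 30 genes spanned only 0.67, from 8.73 for rpl8 to 8.06 for mylpfb, while their SDs ran from 0.07 (actc1b) to 0.51 (crygm2d3). In 28 of the 29 neighbouring pairs the gap was smaller than the smaller of both SDs. Both genes of a pair were read on the same arrays, and their SDs include shifts they share. The spread of the gap itself was not measured.

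**Figure D1:**
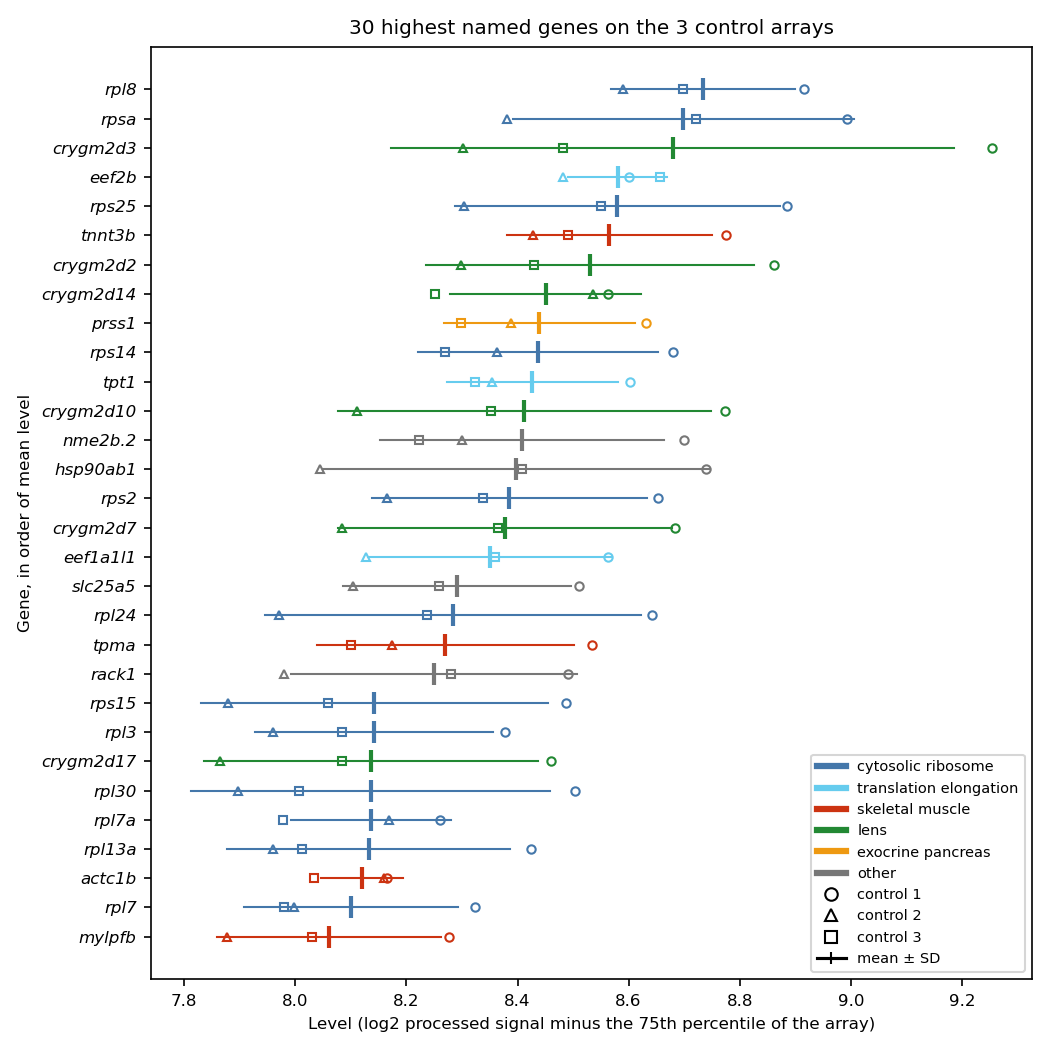
Level of the 30 highest named genes on each control array (log2 processed signal minus the 75th percentile of the array), with symbols for the arrays, a tick for the mean and a line for 1 SD to each side, coloured by list. Control 1 (circles) lies to the right for most genes, and the lines of neighbouring genes overlap.

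The top 100 genes held 43 members of the cytosolic ribosome list, 14 of the lens, 13 of skeletal muscle, 5 of the exocrine pancreas, 5 reference genes, 3 of glycolysis, 3 of translation elongation and 2 of the epidermis. Liver, red cells and the respiratory chain had 1 each, some genes stand in more than 1 list, and 14 genes stand in none. The last gene inside the top 100 was snx16 at 7.52, and the first outside was the ribosomal gene rplp1, also at 7.52. Each array's own top 100 shared 91, 95 and 97 genes with that of the mean. When the median of a gene's detected probes stood for it, in place of the brightest, 71 of the 100 genes stayed and the muscle members fell to 7.

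Signal was concentrated in few genes. The top 10 genes carried 4.49% of the summed signal of all ranked genes (SD 0.22, n = 3 arrays), the top 30 carried 11.7% ± 0.67, the top 100 carried 29.7% ± 1.57 and the top 1000 carried 77.0% ± 1.53. The highest 234 genes together reached 50% of the sum. On a linear scale the sum is carried by bright probes, so a share describes signal and is no count of molecules.

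**Figure D2:**
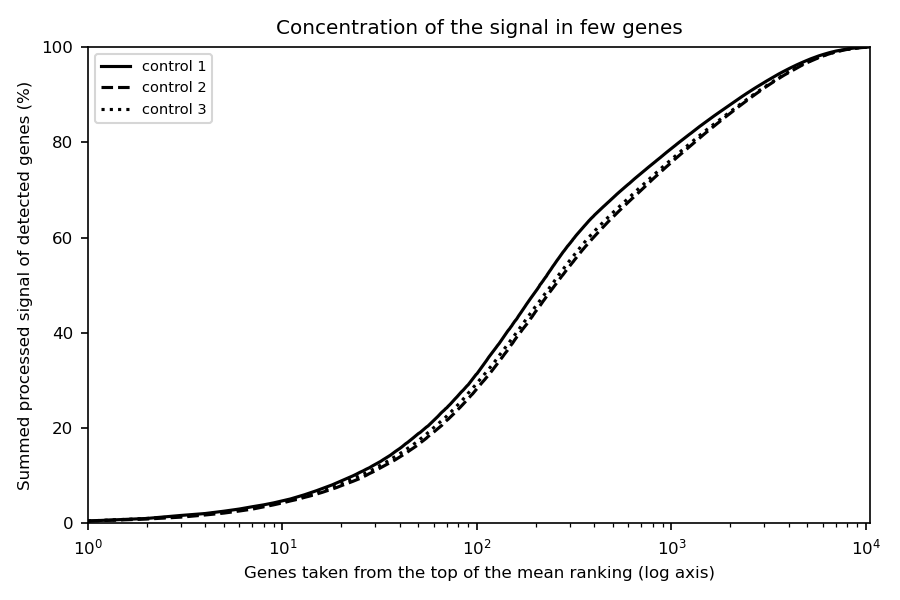
Share of the summed processed signal of detected genes (percent) against the number of genes taken from the top of the mean ranking (log axis), with 1 line per control array. The 3 lines lie close together and pass 50% near the 234th gene.

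The 1172 detected members of the 36 gene lists, out of 1379 on the array, carried 51.7% ± 2.21 of the summed signal. Tissue lists alone, with 775 detected genes, carried 24.6% ± 0.58. A list's share depends on how many genes it holds, so the median percentile of its detected members is given beside it, where 100 is the highest rank and all ranked genes have a median of 50 by construction.

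The ribosome list had the largest share and the highest median percentile of all lists. All 81 genes of cytosolic ribosomal proteins on the array were detected, 79 lay in the top 5% of ranked genes and their median percentile was 99.1. They carried 19.8%, 17.2% and 17.7% of the signal on control arrays 1, 2 and 3 (18.2%, with an SD of 1.4 percentage points). The large subunit with 45 genes and the small subunit with 35 had nearly the same median level, 7.61 and 7.54. The 2 exceptions were faub (rank 2528), whose product is a ubiquitin-like fusion with a small subunit protein, and rps8b (rank 8540), a second copy of the gene for a small subunit protein, which is read by 1 probe. By contrast the 64 genes of mitochondrial ribosomal proteins, all of them detected too, had a median percentile of 74.4, and 1 of them (mrpl20, rank 84) lay in the top 5%.

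The translation elongation list followed, with 20 of 20 detected and a median percentile of 96.8. It holds elongation and initiation factors and also other genes, such as tpt1, naca, btf3 and pabpc1a. Its highest member, eef2b, stood at 8.60, 8.48 and 8.66, with an SD of 0.09 that is small beside that of most ribosomal genes. Next in the list were tpt1 (8.43 ± 0.15), eef1a1l1 (8.35 ± 0.22) and eef1b2 (6.74 ± 0.10), an exchange factor for the elongation factor that brings tRNA. A drop of more than 1 on the log2 scale thus separated eef1a1l1 from eef1b2.

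Energy metabolism was also high. Of 59 nuclear genes of the respiratory chain and ATP synthase, 58 were detected, 34 lay in the top 5%, and the median percentile was 95.7. The highest was atp5l, a subunit of ATP synthase, at 8.24, 7.72 and 7.83 (rank 45), followed by atp5f1b (7.47 ± 0.15), the catalytic beta subunit, cox7c (7.43 ± 0.44) and cox4i1 (7.36 ± 0.30) of cytochrome c oxidase. Counted by symbol over all subunits, a wider set than the list, the median percentile was 94.5 for complex I (34 of 35 detected), 93.7 for complex II (4 of 5), 96.1 for complex III (8 of 8), 97.4 for complex IV (14 of 14) and 96.9 for ATP synthase (17 of 17). The undetected list member was ndufa12, a subunit of complex I, which was above background on no array. All 29 glycolytic genes were detected with a median percentile of 93.0, led by eno3 (7.97 ± 0.26), the muscle enolase, gapdh (7.67 ± 0.29), aldoab (7.56 ± 0.19) and eno1a (7.38 ± 0.18).

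All 32 listed proteasome genes were detected (43 of 47 when every psm symbol was counted), with a median percentile of 91.5 and psma1 highest at 5.43 ± 0.14. All 26 genes of DNA replication and mitosis were detected too, at a median percentile of 65.8 and with none in the top 5%. The replication helicase subunit mcm7 was highest among them, at 3.83, 4.38 and 4.29, followed by ube2c (3.17 ± 0.15), a ubiquitin-conjugating enzyme of mitotic exit. Splicing factors (35 of 35), tRNA synthetases (11 of 11) and subunits of RNA polymerase II (10 of 10) had no undetected member, with median percentiles of 82.5, 77.1 and 72.9.

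Skeletal muscle gave the largest share of any tissue list when the brightest probe stood for a gene, but came after the lens (6.24% against 8.31%) when the median of a gene's detected probes did. Of its 73 genes 72 were detected, 40 lay in the top 5% and the median percentile was 95.8. The list carried 6.88%, 6.79% and 6.75% of the signal on the 3 arrays (6.81% ± 0.07), the smallest spread relative to its size among the 5 tissue lists with a share above 1%. The thin filament led it: tnnt3b, a fast troponin T, at 8.78, 8.43 and 8.49, tpma, alpha tropomyosin, at 8.53, 8.17 and 8.10, and actc1b, a sarcomeric actin, at 8.16, 8.16 and 8.03. After them came mylpfb, a regulatory light chain of fast myosin, at 8.28, 7.88 and 8.03. The defining markers ckma, muscle creatine kinase, and mylpfa stood at 7.03 ± 0.22 (rank 158) and at rank 163. Actin genes are near-identical in sequence, and whether a probe reads 1 of them alone was not tested.

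The fast myosin heavy chains myhz1.1, myhz2, myhc4 and myhz1.2 ranked 76, 179, 628 and 917, and the slow chains smyhc3, smyhc1 and smyhc2 ranked 255, 335 and 1226, so that both kinds overlapped in rank. Parvalbumins buffer calcium in fast fibres, and some members are known from neurons or sensory cells. All 9 were detected (median percentile 95.8), with pvalb1 at rank 59 and pvalb2 at rank 87. All 21 troponin genes were detected, but their ranks ran from 6 (tnnt3b) to 8781 (tnni2a.3). The only muscle member not detected was cacna1sa, the voltage sensor of the calcium channel, which was above background on 2 arrays, with levels of -4.84, -4.31 and -4.09. The heart list lay much lower, but it holds regulators such as nkx2.5 and gata4 as well as muscle proteins. Of 14 heart genes 11 were detected with a median percentile of 53.1. With the median of a gene's detected probes it was 67.9, against 94.7 for skeletal muscle. The light chain cmlc1 stood at 3.09 ± 0.29 (rank 1414), and the defining atrial and ventricular light chain myl7 at 2.64, 2.21 and 2.02 (rank 2244). Not detected were nkx2.5 (2 arrays), gata4 and bmp10 (none). The list's highest member, actc1a at 7.33 ± 0.19, is also a member of the skeletal list.

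The lens list carried 6.69%, 5.63% and 5.81% of the signal (6.04% ± 0.57), with 53 of 63 genes detected and 27 in the top 5%. On all 3 arrays this was below skeletal muscle, most narrowly on control 1. The leading members were crygm2d3 (9.25, 8.30 and 8.48), crygm2d2 (8.86, 8.30 and 8.43), crygm2d14 (8.56, 8.54 and 8.25) and crygm2d10 (8.77, 8.11 and 8.35). They belong to the gamma M crystallins, a fish family of small methionine-rich proteins that allow dense packing in the lens. The SD of crygm2d3 was 0.51, from 1 high array, while that of crygm2d14 was 0.17. Copies of this family are near-identical and most were read by 1 probe, and whether each probe reads a single copy was not tested.

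Other crystallins lay lower. Among the beta crystallins cryba4 ranked 69 and cryba1b ranked 127, and the defining marker cryaa, an alpha crystallin with chaperone function, stood at 2.34, 2.83 and 2.87 (rank 1764). Its sister gene cryabb ranked 9366, and cryaba was above background on no array. Not detected were also crybb2, crygm6, crygs1, crygs2 and the connexin gja3 (no array), crygm2d21 and the connexin gja8b (1 array), and the connexin gja8a and the lens transcription factor foxe3 (2 arrays). Within 1 organ the list thus ran from rank 3 to rank 10003.

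In the retina the rod opsin led. Of 50 photoreceptor genes 43 were detected, at a median percentile of 76.0 and a share of 0.89% ± 0.01. The rod pigment rho stood at 7.73, 7.26 and 7.31 (rank 108), and exorh, the opsin of the pineal organ, at 6.34, 6.56 and 6.48 (rank 235). Cone pigments followed with the green opsin opn1mw1 (5.95 ± 0.41), the red opsin opn1lw2 (5.83 ± 0.15), the ultraviolet opsin opn1sw1 (5.38 ± 0.22, a defining marker) and the blue opsin opn1sw2 at rank 538. The cone transducin gnat2, the other defining marker, stood at 4.58 ± 0.17 (rank 573), and its rod counterpart gnat1 ranked 2075. Rods and the ultraviolet, blue, green and red cones thus each had an opsin within the first 538 genes. A second detected green opsin, opn1mw2, ranked 2765. The green opsin copies opn1mw3 and opn1mw4, grk1a, guca1d, gc2 and gucy2f were above background on no array, and the rod transcription factor nrl on 2 arrays.

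Of 34 genes of retinal pigment epithelium and pigment cells 26 were detected, with a median percentile of 59.9. The highest were paics (4.35 ± 0.16), an enzyme of purine synthesis, rgrb (3.76 ± 0.26), a retinal G protein-coupled opsin, rpe65a (3.54 ± 0.12), the isomerase of the visual cycle, and tyrp1b (3.14 ± 0.19), an enzyme of melanin synthesis. The melanin enzyme tyr, ltk, tfec and csf1ra were above background on no array, pax7b on 1, and slc24a5, mitfa and kita on 2.

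Neuronal genes were widely detected, with a median percentile above that of all ranked genes. Of 72 genes 69 were detected, and the median percentile was 68.1. Of the detected genes 3 lay in the top 5%, which is near the share of all ranked genes that lies there. Their summed share was 0.56% ± 0.06. The reticulon rtn1a stood highest at 5.38, 5.26 and 5.10 (rank 410), followed by pvalb7 (5.08 ± 0.28), a parvalbumin known from Purkinje cells, slc6a1b (4.88 ± 0.25), a GABA transporter, and tubb5 (4.67 ± 0.19). The defining marker elavl3, an RNA-binding protein of postmitotic neurons, stood at only -2.79, -2.56 and -2.09 (rank 8920), while its paralog elavl4 ranked 2693. The glutamate transporter slc17a6b (1 array), the receptor subunit gria2a (2 arrays) and kif5c (none) were not detected.

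Glial genes gave 29 of 33 detected and a median percentile of 73.3. Apolipoprotein apoeb (7.34 ± 0.12), which skin and macrophages also express, led that list, followed by the glutamine synthetase glulb (6.44 ± 0.30), the radial glial fatty acid binding protein fabp7a (6.17 ± 0.51) and the glutamate transporter slc1a2b (5.59 ± 0.21). The myelin gene mag, slc1a2a, slc1a3b and csf1ra were above background on no array. The myelin marker mbpa was not analysed here, since no probe was matched to its symbol.

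Among digestive organs the exocrine pancreas had the largest share, with 30 of 32 genes detected, 14 in the top 5% and a median percentile of 94.1. It carried 2.81%, 2.99% and 2.79% of the signal (2.86% ± 0.11). The trypsin prss1 stood at 8.63, 8.39 and 8.30 (rank 9), the elastases ela3l at 8.21, 8.01 and 7.92 and ela2 at 8.26, 7.87 and 7.95, and the chymotrypsin-like ctrl at 7.82, 7.65 and 7.66. Both defining markers, prss1 and ela2, were thus among the top 36 genes. For ela3l and ela2 the second probe lay 3.79 and 2.43 lower on the log2 scale. The transcription factor bhlha15 of acinar cells and the protease gene prss60.1 were above background on no array.

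The liver list had 72 of 73 genes detected, 13 in the top 5%, a median percentile of 81.6 and a share of 1.84% ± 0.11. Retinol binding protein rbp4 led at 8.10, 7.22 and 7.77 (rank 71), followed by apoeb, by ahcy (6.85 ± 0.17), which hydrolyses S-adenosylhomocysteine, and by apoa2 (6.76 ± 0.30), a lipoprotein component. The defining marker fabp10a, the liver fatty acid binding protein, stood at 7.29, 6.33 and 6.31 (rank 209), so that control 1 was high and the other arrays were alike. Clotting factors lay lower, with fgb at rank 524, f2 at rank 1258 and f9b at rank 9205. The only undetected member was the complement copy c3a.6, above background on 1 array. All 12 apolipoprotein genes were detected with a median percentile of 95.4.

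The intestine had 46 of 48 genes detected at a median percentile of 58.4 and a share of 0.64% ± 0.01. Its highest members were apoa1a (6.45 ± 0.19), fabp1b.1 (6.23 ± 0.39), apoa4b.1 (6.10 ± 0.33) and the defining marker fabp2 (5.96 ± 0.36, rank 302), the intestinal fatty acid binding protein; apoa1a and apoa4b.1 also stand in the liver list. The undetected members were cdx4 (1 array) and chia.4 (none). Hormone cells of pancreas and gut gave 28 of 31 detected and a median percentile of 54.1. Insulin, ins, led them at 4.06, 2.89 and 3.15 (rank 1196), with control 1 high, followed by the secretogranin scg5 (3.31 ± 0.15), neurod1 (3.29 ± 0.19) and the somatostatin sst1.1 (2.72 ± 0.38). Not detected were insb (2 arrays), insl5b (1) and pcsk1 (none).

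Skin had more signal than skeleton. Of 53 epidermal genes 52 were detected, 16 in the top 5%, with a median percentile of 86.5 and a share of 2.34% ± 0.20. Keratins led, with cyt1l at 7.96, 7.20 and 7.52, krt92 at 7.79, 7.42 and 7.36, followed by the calcium-binding proteins icn (7.44 ± 0.45) and icn2 (7.40 ± 0.47). The defining marker krt4 stood at 6.95 ± 0.21 (rank 169), and krt93, above background on 2 arrays, was the undetected member. Of 49 genes of cartilage, bone and notochord 45 were detected at a median percentile of 62.7 and a share of 0.60%. The collagen genes col1a2 (6.15 ± 0.11) and col1a1b (5.98 ± 0.13) led, followed by the cartilage protein matn1 (5.68 ± 0.31). The cartilage marker col2a1a stood at 5.00, 5.14 and 6.48, with control 3 high (SD 0.82). The bone regulators runx2a, runx2b and sp7 and the tendon factor scxa were above background on no array.

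Kidney and ionocytes gave 39 of 43 detected and a median percentile of 45.9. The highest were the sodium pump subunit atp1a1a.1 (5.55 ± 0.20), the proton pump subunit atp6v1aa (5.32 ± 0.10), the carbonic anhydrase ca2 (4.50 ± 0.16) and the proton pump subunit atp6v1ba (4.14 ± 0.06). The podocyte gene nphs1, slc9a3.2 and slc8a1b were above background on no array and wt1a on 1. Swim bladder and thyroid genes gave 16 of 20 detected, led by acta2 (5.14 ± 0.02), the smooth muscle actin, and the iodide transporter slc5a5 was among those not detected, with cnn1a (no array) and with tshr and has2 (2 arrays each).

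Among globins 3 embryonic genes were bright, other embryonic copies were dim, and the adult beta globins were not detected. The embryonic alpha globin hbae1.1 stood at 8.08, 7.69 and 7.85 (rank 50), hbae3 at 7.57, 7.16 and 7.44 (rank 115), and the embryonic beta globin hbbe2 at 5.97, 6.04 and 6.11 (rank 295). The embryonic copies hbae4 (rank 6441) and hbbe3 (rank 7890) ranked below the adult alpha globin hbaa2. The latter stood at 1.06, 0.91 and 0.96 (rank 4101), and the adult beta globins hbba1 and hbba2 were above background on no array. Of 31 red cell genes 27 were detected, with a median percentile of 51.3, and the peroxiredoxin prdx2 (6.86 ± 0.36) stood among its leading members. The defining marker alas2, the first enzyme of heme synthesis in red cells, stood at -0.44, 0.78 and -0.44. The iron transporter slc25a37 (2 arrays) and the transferrin receptor tfr1a (none) were the other undetected members. Globin copies are similar in sequence, and whether each probe reads 1 copy was not tested.

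Vessel genes were dim, and innate leukocyte genes lay nearer the middle of the ranking. Of 25 vessel genes 20 were detected, none in the top 5%, at a median percentile of 37.9. The highest were clec14a (1.76 ± 0.26), aqp1a.1 (1.71 ± 0.10), plvapb (1.69 ± 0.07) and the endothelial claudin cldn5b (1.63 ± 0.18). The defining marker kdrl, a receptor of vascular growth factor, was above background on no array, nor were flt1, cdh5 and efnb2a, and kdr passed on 1 array. Innate leukocyte genes gave 33 of 38 detected at a median percentile of 44.5. Besides apoeb and the carboxypeptidase cpa5 (5.64 ± 0.03), which other tissues also express, the highest were nccrp1 (3.57 ± 0.58) and lysozyme lyz (3.16 ± 0.37). The neutrophil peroxidase mpx stood at -2.16, -0.44 and -0.32, low on control 1, and the macrophage gene mpeg1.1 at -0.44, -0.17 and -0.20. Receptors csf1ra and csf3r and the inflammatory genes il1b and acod1 were above background on no array, and tnfa on 1.

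Lymphocyte genes had the lowest detected share of any tissue list. Of 25 genes 6 were detected (24.0%, against 81.4% of all genes) and 16 were above background on no array. The detected ones were il7r (3.95 ± 0.34), a cytokine receptor subunit, runx3 (0.11 ± 0.11), gata3 (-1.27 ± 0.34), zap70, lck and cd4-1, the last 3 at ranks 9726, 10156 and 10237. The recombinase genes rag1 and rag2, which cut the antigen receptor genes, were above background on no array, with levels of -6.73, -5.90 and -5.44 for rag1. Further members above background on no array included cd8a, ikzf1, il2rga, rorc, ifng1, ifng1r, il10, il17a/f1, il17a/f2, il17a/f3, il22, il26 and dntt. Single arrays showed pax5, cd37 and blk.

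Of the genes listed for sensory hair cells, which neomycin is known to kill, many were dim or undetected. Of 32 listed genes 20 were detected (62.5%) at a median percentile of 47.6, and 3 lay in the top 5%. With undetected genes ranked too the median was 28.0. With the series matrix values it was 64.0, but that matrix ranked fewer genes (10101) and may hold fewer members. The highest members of the list were calm1a (5.95 ± 0.11), a calmodulin, pvalb9 (5.17 ± 0.11) and pvalb8 (5.01 ± 0.36), both parvalbumins, and stm (3.72 ± 0.20), a protein of the otolith matrix. How much of their signal came from hair cells was not tested. Lower in the list, s100t ranked 1381, tmie 7982, gfi1ab 8935, gfi1aa 9276 and myo7aa 10349. The hair cell transcription factor atoh1a stood at -3.70, -3.52 and -4.04 (rank 10160), and pou4f3, the defining marker, was above background on no array (levels of -6.72, -6.70 and -6.99). The same held for atoh1b, myo6b, otofa, lhfpl5b, cdh23, pcdh15a, pcdh15b, cacna1da, slc17a8, s1pr2 and espn, genes of the hair bundle and its synapse among them. For these 12 genes the control arrays give only an upper bound, set by the background.

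The cholinergic synapse, on which tacrine acts, was likewise dim. Of 19 genes 14 were detected at a median percentile of 21.1, led by the muscle receptor subunit chrna1 at 1.92, 1.84 and 1.72, by chrna5 (0.97 ± 0.55) and by chrnd (0.46 ± 0.06). Acetylcholinesterase, ache, came next at -0.44, -0.38 and -0.06 (rank 6100). The receptor genes chrna6, chrnb3b, chrm5a and chrm5b were above background on no array and chrm4a on 2.

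Developmental and reproductive genes had low ranks. Of 48 genes of early embryo patterning 23 were detected at a median percentile of 28.6 (18.4 when undetected genes were ranked too), with bambia (2.46 ± 0.11), gsc (1.62 ± 0.33), otx2b (1.14 ± 0.05) and myog (0.80 ± 0.44) highest. The pluripotency factor nanog, the Nodal ligands ndr1, ndr2 and spaw, and the segmentation clock genes her1 and her7 were above background on no array, as were tbx16, sox32, sox17, vent, szl, dharma, mespaa, mespba, ripply2 and wnt8a. On 1 array chrd, mixl1, cdx4 and fgf3 passed, and on 2 arrays noto, tbx6, msgn1, ripply1 and wnt11f2. Hox genes, which mark position along the body axis, had 40 of 47 detected (85.1%), near the 81.4% of all genes. Their median percentile was 31.1, with hoxb8a (1.59 ± 0.22), hoxa4a (1.05 ± 0.17), hoxc8a (1.02 ± 0.22) and hoxb3a (0.95 ± 0.20) highest. Undetected were hoxa1a, hoxa11a, hoxb1a and hoxc12a (no array), hoxc13b (1 array), and hoxa13a and hoxc12b (2 arrays).

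Germ cell and gonad genes had 15 of 48 detected (31.2%) and a median percentile of 13.7, the lowest of any list, although the lymphocyte list went lower (8.70 against 16.0) when the median of a gene's detected probes stood for it. With undetected genes ranked too, the lymphocyte list (8.80) and the olfactory and taste list (9.21) lay below the germ cell list (13.5). The highest were steroid genes, cyp17a1 (-0.55 ± 0.27) and star (-0.82 ± 0.30), which the interrenal gland uses as well, then jam3b (-0.89 ± 0.19) and cth1 (-1.48 ± 0.18). The germ cell helicase ddx4 was above background on no array, and the egg coat gene zp3 on 1. Also at background on all arrays were tdrd7a, dnd1, zp2.1, zp2.5, zp2.6, zp3a.2, zp3d.2, gdf9, bmp15, figla, zgc:171776, h1m, sycp1, sycp3, spo11, dmc1, dmrt1, amh, cyp19a1a, insl3 and cimap1b. The meiotic genes sycp1, sycp3, spo11 and dmc1 thus had no detected member. On 1 array dazl, nanos3, zp2.3, zp3a.1, gsdf and hsf5 passed, and on 2 arrays piwil1, gra, zp3d.1 and zar1.

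Hatching and yolk genes divided. The hatching enzyme he1.1 was above background on no array, its copies he1.2 and he1.3 ranked 10345 and 5088, and of the yolk precursors vtg5 ranked 10463 while vtg2 and vtg7 passed on 2 arrays, vtg6 on 1 and vtg4 on none. The early yolk layer factor mxtx2 was not detected either. That list as a whole had 15 of 21 detected and was led by apoeb, apobb.1, cd63 and ctsl.1. How much of their signal came from the hatching gland or the yolk was not tested. The list mixes genes of both, so its median percentile of 68.4 does not describe the hatching gland alone.

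Pituitary and neuropeptide genes gave 32 of 42 detected and a median percentile of 42.1. The peptides adcyap1b (3.28 ± 0.32), sst1.1 (2.72 ± 0.38), pmchl (2.38 ± 0.53) and sst6.1 (2.31 ± 0.27) were highest. The pituitary hormones gh1 and prl ranked 5215 and 7920, whereas the gonadotropin subunits fshb and lhb, the thyrotropin subunit tshba, the factor pou1f1, and prl2, pomcb, smtla, hcrt and kiss1 were above background on no array and ghrh on 2. Clock genes gave 30 of 36 detected at a median percentile of 28.7. The kinase csnk1db (4.13 ± 0.10), the cryptochrome cry1a (3.27 ± 0.09), bmal1a (2.92 ± 0.18) and nfil3 (2.45 ± 0.15) were highest. Neither clocka, npas2, rorca, dbpb nor hlfb was above background on any array, and dbpa passed on 2.

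Stress and immediate early genes, which respond quickly to handling, gave 43 of 47 detected at a median percentile of 65.0. The detoxifying enzyme gstp1.2 (6.34 ± 0.36), btg1 (5.11 ± 0.17), the metallothionein mt2 (4.46 ± 0.99) and the peroxiredoxin prdx1 (3.96 ± 0.14) were highest. The factors egr1, fosl1a, jund and klf4 were above background on no array.

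**Figure D3:**
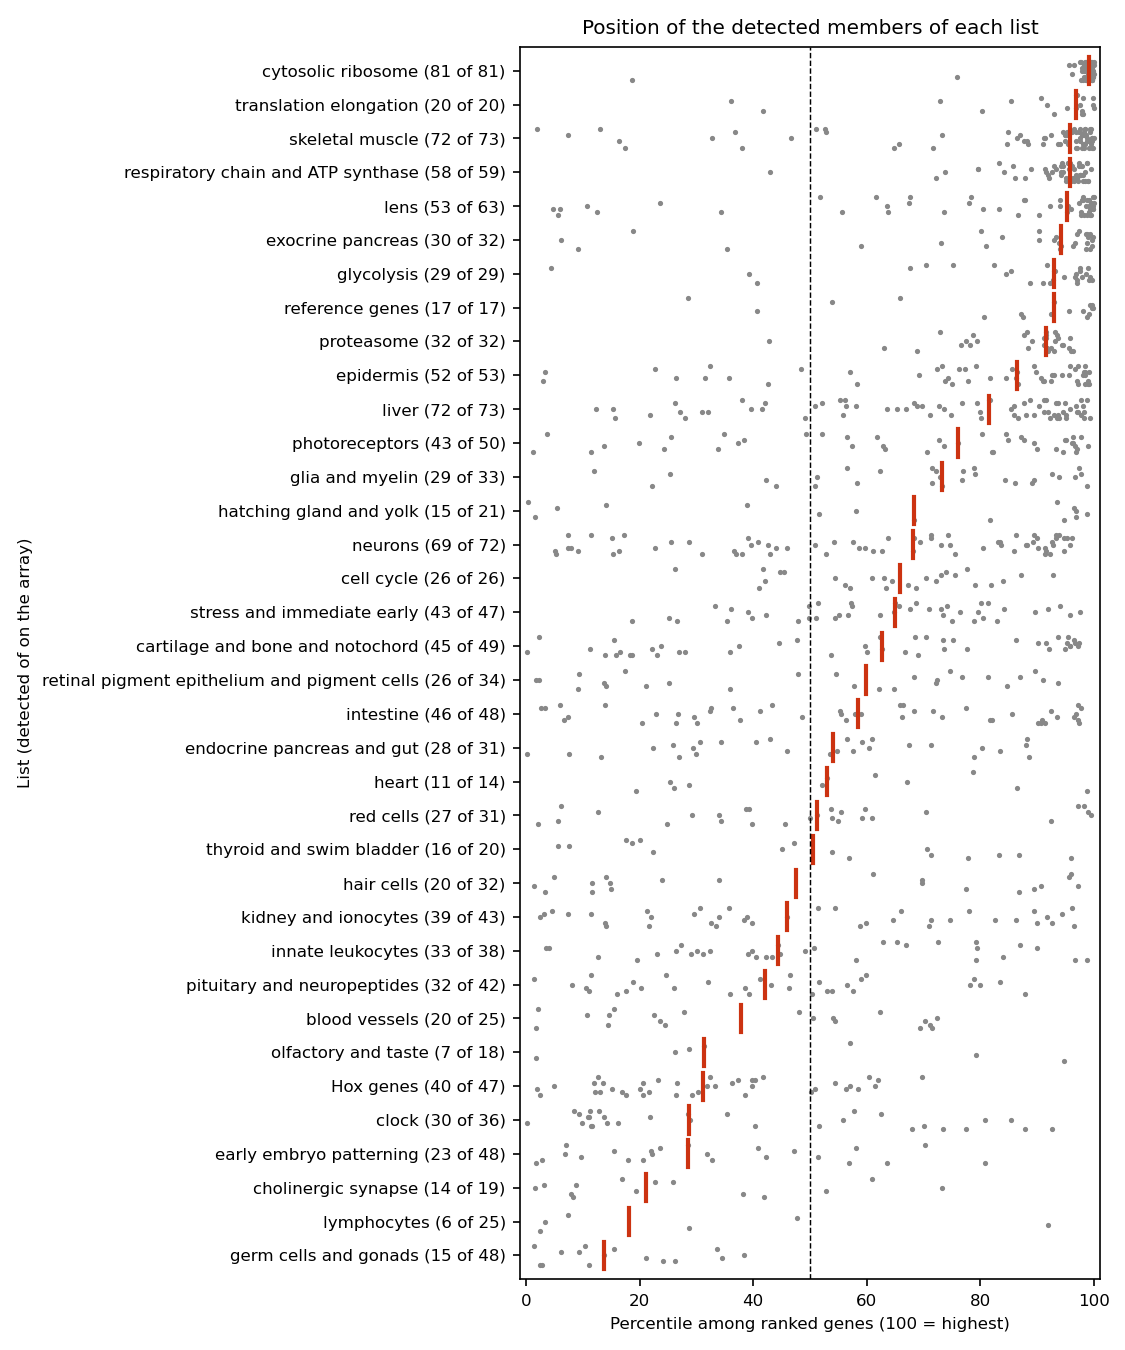
Percentile of every detected list member among the 10502 ranked genes (100 is the highest rank), with 1 row per list, grey points for genes and a red bar for the list's median; the dashed line marks the median of all ranked genes, and the row names give detected genes of those on the array. Ribosome, muscle, respiratory chain, lens and pancreas crowd at the right, while lymphocyte and germ cell lists lie at the left with few detected members.

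Gene families were then compared by detection alone, which depends on probes too. A gene counted as detected when any 1 of its probes passed, so genes with more probes had more chances. The number of probes per gene was not compared between families. Families were taken by symbol, 78 in all. In 17 of them every member was detected, in 22 fewer than 50% were, and in 3 none was. No member was detected among 10 taste receptors and 17 vomeronasal type 2-like receptors (olfc), nor was the single vomeronasal type 1-like receptor. The odorant receptors followed, with 5 of 101 detected (or61c2, or64b4, or70a2, or70a3 and or92a2) and 89 above background on no array. Of 29 trace amine-associated receptors 1 was detected (taar12h). As background, an olfactory neuron typically expresses a single receptor gene. The short list of olfactory and taste genes had 7 of 18 detected, with a median percentile of 31.4. It was led by calb2a (4.63 ± 0.14), a calcium-binding protein that neurons elsewhere express, gnao1a (2.33 ± 0.16), otx5 (0.73 ± 0.04) and the olfactory marker protein gene ompa (-1.05 ± 0.16). How much of their signal came from organs of smell or taste was not tested. The list's members ompb, trpc2b, trpm5, ora2 and the 7 listed taste receptors were above background on no array.

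Immune recognition families were next. Of 17 immune-type receptors of the nitr family, 1 was detected (nitr12), of 6 genes of interferons, 1 receptor among them, 1 (ifnphi4), of 10 MHC genes 3 (mhc1laa, mhc1zba and mhc1zca), of 37 interleukins and their receptors 14, and of 10 toll-like receptors 4 (tlr1, tlr3, tlr4bb and tlr5b). Egg proteins gave 2 of 18 zona pellucida genes (zp2.2 and zp3b) and 1 of 5 vitellogenins. Their detected members ranked low: the best zona pellucida gene was zp3b at rank 9344.

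Receptors and channels of excitable cells ranged widely. Nicotinic receptor subunits had 9 of 11 detected, GABA-A receptor subunits 6 of 8, glycine receptor subunits 3 of 4, adrenergic receptors 7 of 11, TRP channels 8 of 13 and ionotropic glutamate receptors 7 of 12. Fewer were found elsewhere: the melanocortin, neuropeptide Y and melatonin receptors had 1 of 14 detected (mtnr1c), dopamine receptors 2 of 9 (drd2a and drd3), and potassium channels 22 of 55. Voltage-gated sodium channels had 3 of 8 (scn5lab, scn8aa and scn8ab) and voltage-gated calcium channels 7 of 18. Opsins had 11 of 18, and the detected ones had a median percentile of 94.9. Of developmental signals, 7 of 20 Wnt ligands, 7 of 14 bone morphogenetic proteins and 15 of 30 fibroblast growth factors were detected, all below the 81.4% of all genes. Some large families lay near that share, with 217 of 273 solute carriers, 56 of 64 cytochrome P450 genes and 37 of 49 forkhead factors, unlike the odorant receptors, potassium channels and mitochondrial ribosomal proteins above. With 1 array enough for detection, 12 families instead of 22 stayed below 50%, and 2 instead of 3 had no detected member.

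**Figure D4:**
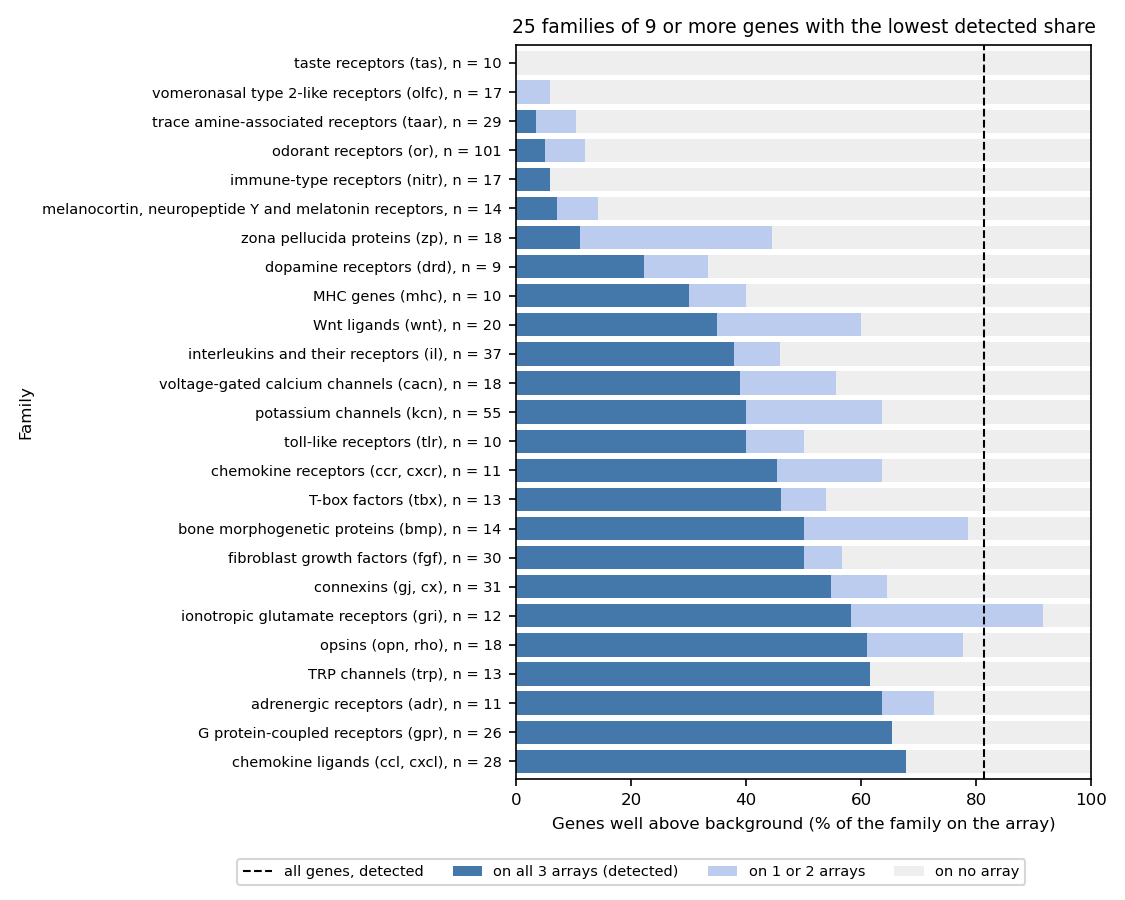
Share of genes above background (percent of the family's genes on the array) for the 25 families of 9 or more genes with the lowest detected share, split into genes above background on all 3 control arrays, on 1 or 2, and on none; the dashed line marks 81.4%, the detected share of all genes. Receptors of taste and smell lie at the top with almost no detected gene.

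The 3 arrays agreed closely, with pairwise correlations of 0.983 to 0.990 across the 27304 detected probes. The median SD of a ranked gene was 0.21 on the log2 scale, 0.26 for the top 100 and 0.28 for the lowest 1000. Control 1 was the highest array in 91 of the top 100 genes and control 2 the lowest in 70, counts that fell to 45 and 39 under quantile normalization. The order of the arrays in bright genes thus depended on the scaling.

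Of 5651 genes above the 75th percentile of the array, 9 had an SD of at least 1. The 10 with a proper symbol and the largest SD were araf, ccdc125, pdcl3, gnrh2, hsp70l, mt2, cbln8, hsp70.3, rab42a and rca2.1. The kinase araf stood at -1.37, 0.59 and 1.17, and the metallothionein mt2, which binds zinc and copper, at 5.39, 3.42 and 4.58. The inducible heat shock genes hsp70l and hsp70.3 were highest on control 3 (2.39 and 1.79) and lowest on control 2 (0.45 and -0.06). The hormone gene gnrh2 was highest on control 1 (1.69, 0.21 and -0.34). The order of the arrays was shared by hsp70l, hsp70.3 and cbln8, by gnrh2, rca2.1 and ccdc125, by araf and pdcl3, and by mt2 and rab42a, and it differed between these sets.

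**Figure D5:**
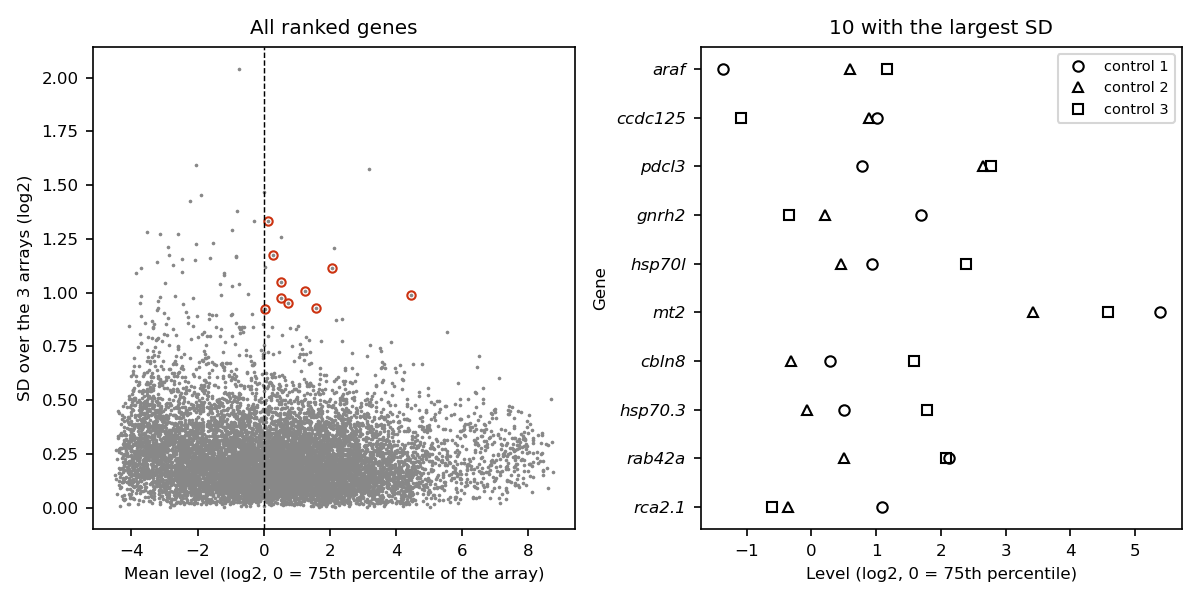
Left, SD over the 3 control arrays (log2) against mean level (log2, 0 is the 75th percentile of the array) for all ranked genes, with the 10 genes of the right panel circled; right, level of these 10 genes on each control array. Most genes lie below an SD of 0.5, and the order of the arrays differs among the 10 genes.

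Reference genes of the kind used in quantitative PCR ranged from rank 17 to rank 7506. The elongation factor eef1a1l1 ranked 17, gapdh 75, actb2 86 and actb1 120 (7.35 ± 0.07), whereas the TATA-binding protein tbp stood at 1.37, 1.26 and 1.33 (rank 3585) and hprt1 at -1.10, -1.35 and -1.40 (rank 7506). The smallest spread was that of sdha (SD 0.02) and the largest that of b2m (SD 0.57). All 17 were detected.

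The same ranking was made for the 6 arrays it had not used. By the same rule 10808 genes were detected in the neomycin group and 10910 in the group given both compounds, and rpl8 stood first in each. The top 100 shared 93 and 92 genes with that of the controls. Of the 10502 control genes 66 and 62 were not detected there, and 372 and 470 genes were detected there but not in the controls. The top 100 held 44 and 40 ribosomal, 12 and 12 muscle, 13 and 13 lens, and 5 and 5 pancreatic genes. The 75th percentile of these arrays ran from 142 to 226 signal units, above that of the controls, and the part of this in the larger number of detected genes was not tested.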

How the data were processed

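RNA of whole 5-day larvae was labelled with Cy3 from 0.2 µg of total RNA and hybridised to 1-colour Agilent arrays, per the labels' protocols. The scanner files hold processed intensities that the authors' software had already background-corrected, and marks of 0 or 1 for spots well above background, per the file headers. Feature Extraction, the scanner software, is version 8.0 in the submitters' processing notes but version 10.1.1.1 per the file headers. The authors' deposited series matrix holds log2 values of 25265 probes (medians of 7.11 to 7.12, r = 0.986 with each array's own processed signal) with their normalization not given in the sources used here, and served as an alternative only.

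Control spots were left out, spots of a probe averaged, and the 75th percentile of each array subtracted from log2 signals. The files hold no gene names. Symbols came from unversioned RefSeq accessions matched to a GRCz12tu table for 25173 of 43603 probes, and 40 list members were found under a later symbol. No coordinates are given. The brightest detected probe stood for a gene.

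No test was made, since there is 1 group, and the number of arrays (3) limits the precision. Families and gene lists were chosen with earlier results of these data known, and family symbol patterns were corrected after the symbols were seen. Named genes are the top 30, up to 4 leading and all undetected members of a list, the 10 most variable above the 75th percentile, and fixed markers and controls; 1 lymphocyte list member is not reported here by name. Others (paralogs of named genes and the members of families) were chosen after their values were seen. Alternatives were other detection rules, the median of a gene's probes, normexp background correction, quantile normalization, the series matrix and leaving out each array. Marked non-uniform spots (1, 0 and 22) were left out of the normexp fit, a choice made after seeing the data. R 4.3.3, limma 3.58.1, Python 3.11.15, numpy 2.4.6, pandas 2.3.3 and matplotlib 3.10.9 were used. The ranking code was run on simulated data with a known order and the same offset between the probes of every gene. That run checks the code and cannot show that the brightest probes rank the RNA rightly.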

Additional observations from a re-analysis of the deposited data

How the results depend on the processing

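No paired analysis was possible because only the control group was analysed and no test was made. Standing the median of a gene's detected probes in for the brightest raised the share of the top 100 genes to 36.4%, of the ribosome list to 22.3%, of the lens to 8.31% and of the exocrine pancreas to 3.44%, and lowered that of skeletal muscle to 6.24% and its members in the top 100 to 7. With normexp background correction the shares of skeletal muscle and exocrine pancreas were 6.54% and 2.65%. With 1 array enough for detection, 12 families stayed below 50% detected. The cause of these shifts was not tested. Leaving out 1 array gave 27463 to 28143 detected probes, 10535 to 10673 genes and 97 to 98 of the top 100 genes. The top 100 kept 96 genes under normexp, and all 100 under quantile normalization and with the series matrix. Median percentiles of lists moved by a median of 2.78 with the median of probes, most for the heart (53.1 to 67.9). With the series matrix the lymphocyte list moved from 18.1 to 35.6. That matrix ranked 10101 genes in place of 10502, so its list medians can rest on fewer members. The part of this in the shift was not tested. When undetected genes were ranked too, the olfactory and taste list moved from 31.4 to 9.21. The naming alternative was not run, since the accession was the only name in the files. A slide block was not used either, and any part of the slide in the spread of the 3 arrays was not tested. A gene not above background has only a bound, and the lowest ranked gene stood at -4.49.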

Other observations

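Among the top 100 genes, 6 were lowest on control 1, the array on which 91 of the 100 were highest: spag1b, marveld2b, mybpc2b, mrpl20, si:ch1073-376c22.1 and snx16. Of these, 5 stand in no gene list. The order of the arrays depended on the scaling: under quantile normalization 33 of the top 100 were lowest on control 1 and 45 were highest there. In 5 of the 6 the second probe of the gene lay more than 4 below the brightest on the log2 scale, by 8.47 for spag1b, 7.15 for marveld2b, 5.19 for mybpc2b, 11.02 for si:ch1073-376c22.1 and 4.41 for snx16, against a median gap of 0.66 over the 79 top genes with at least 2 detected probes. Another gene, pmepa1 (rank 79, 7.66), had a second probe at -6.78 that was above background on no array and is not in that count. Gaps of 7 or more were found also for the ribosomal gene rpl37 (7.51) and the crystallin crygm2a (7.46). The place of these 8 genes in the top 100 rests on 1 probe each, whereas the second probe of mrpl20 had a mean level of 6.97. They are not the only such genes: 21 of the top 100 had 1 detected probe, pmepa1 among them. For ela3l, aldoab, ela2 and acta1a the second probe lay 3.79, 3.48, 2.43 and 2.35 lower. In 48 of the 79 with at least 2, the second probe lay within 1 of the first on the log2 scale. Among the 100 brightest probes 17 had no gene symbol here, so some of the brightest RNA of the larva is not named.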
